A study of Bos taurus with 5 samples.

Results

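The genes described here encode the enzymes of the citric acid cycle and of fatty acid beta-oxidation, with the proteins that feed them: fatty acid carriers, acyl-CoA thioesterases, and enzymes of ketone body and branched-chain amino acid use. They were chosen by gene symbol from a table of muscle RNA levels, without regard to level, and 60 of its 9022 genes matched. The tissue was longissimus dorsi, a long back muscle, of 5 Jiaxian Red cattle aged 18 months, and each animal gave 1 library of total RNA. All 5 libraries formed 1 group with no treatment or genotype contrast, so genes are compared within a library and libraries are described side by side. Levels are in FPKM, which corrects fragment numbers for transcript length and library size, and were summed here over the listed transcripts of a gene. Animal, dissection and library preparation cannot be told apart, since 1 animal is 1 library, and in whole muscle neither can fewer cells of a type and less RNA per cell.

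The citric acid cycle runs in the mitochondrial matrix and oxidises acetyl-CoA to carbon dioxide, passing electrons to the respiratory chain. Beta-oxidation supplies acetyl-CoA by shortening fatty acids: they enter the fibre on carriers, cross into mitochondria as carnitine esters, and then pass through dehydrogenation, hydration, a further dehydrogenation and thiolysis. Oxidative muscle fibres are rich in these enzymes, and peroxisomes hold a separate set for very long and branched chains.

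A mean of at least 1 FPKM, taken as detected, was reached by 50 of the 60 genes, against 68.0% of all listed genes. Of these 50, 31 averaged at least 10 FPKM, as did 35.4% of all 6136 detected genes, 18 at least 50 FPKM and 7 at least 100 FPKM. The median level of the 50 was 22.2 FPKM, beside 6.38 FPKM for all detected genes. Together the 60 genes held 1.099% ± 0.0973 (SD, n = 5) of the summed FPKM of a library, with 0.997%, 1.03%, 1.21%, 1.20% and 1.06% in libraries 1 to 5. Libraries 3 and 4 thus gave these genes the greatest share and library 1 the smallest. The summed FPKM of all genes ran from 193706 in library 1 to 223251 in library 4, and without counts the read depth is unknown.

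The table lists only some transcripts of some genes, which limits how a low value can be read. In 18 of the 60 genes, 4 of them among the 10 below detection, the numbers of the listed transcripts had gaps, as in 34.7% of all genes with numbered transcripts. For such genes the sum may leave out transcripts. A further 20 symbols that the same choice would take from the RefSeq gene table, among them CS (citrate synthase), CPT2, ETFB, BCKDHB, ECI1 and ACADL, were not analysed here. An exact 0 occurred in at least 1 library for 5 genes and is reported as listed at 0.

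By summed FPKM, genes of the citric acid cycle itself were the most abundant group. Its 12 listed genes, IDH3B with its listed zeros included, summed to 865 ± 89.0 FPKM (SD, n = 5), 0.417% ± 0.0312 of a library, and 10 of them averaged at least 10 FPKM. MDH2, which makes oxaloacetate from malate, led with 194, 164, 209, 191 and 185 FPKM in libraries 1 to 5, a mean of 189 ± 16.2 (SD, n = 5). Its level spanned 1.27-fold from the lowest animal to the highest.

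The oxoglutarate dehydrogenase complex varied little between animals. OGDH, its first component, had 75.03, 75.5, 86.4, 79.9 and 72.4 FPKM in libraries 1 to 5. DLST, its second component, had 41.3, 35.8, 42.7, 41.9 and 36.3 FPKM. Both genes were highest in library 3, and their ranges did not overlap. The transcript numbers of OGDH had gaps and those of DLST had none, so the OGDH sum may be partial. OGDH was 1.94-fold above DLST on the log2(FPKM + 1) scale, with a log2 ratio of 0.96 ± 0.08 (SD, n = 5), a spread smaller than that of either gene alone, and a ratio of 0.40 where only the highest listed transcript of each gene was taken. DLD, the third component, which is shared with the pyruvate dehydrogenase complex, lay at 76.5 ± 8.72 FPKM (SD, n = 5).

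Succinyl-CoA ligase, which makes ATP or GTP in the cycle, comes in forms set by its beta subunit. SUCLA2, the ATP-forming beta subunit, had 86.5, 102, 120, 149 and 125 FPKM in libraries 1 to 5. SUCLG2, the GTP-forming beta subunit, had 50.4, 65.9, 67.2, 89.3 and 74.9 FPKM. Both subunits were lowest in library 1 and highest in library 4, and their levels ranked the 5 animals in the same order. SUCLA2 exceeded SUCLG2 in 5 of 5 libraries, by 1.66-fold, with a log2 ratio of 0.73 ± 0.08 (SD, n = 5), while each subunit alone had an SD of 0.30. SUCLG1, the alpha subunit that both forms share, was at 0.0925 FPKM or below in every library, but only SUCLG1-202 was listed for it, so its level is not measured by the sum.

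Isocitrate is oxidised by a cycle enzyme that uses NAD, built of IDH3A, IDH3B and IDH3G, and by IDH2, which uses NADP. IDH3A, the catalytic subunit gene, had 37.3, 34.1, 34.2, 48.5 and 53.4 FPKM in libraries 1 to 5, and IDH2 had 97.6, 94.7, 124, 112 and 98.8 FPKM. IDH3A lay below IDH2 in 5 of 5 libraries, with a log2 ratio of -1.34 ± 0.35 for IDH3A over IDH2 (SD, n = 5). The regulatory subunits were irregular. IDH3G was at 7.62 FPKM in library 2 and between 0.528 and 1.90 FPKM in the other 4. IDH3B, through IDH3B-202 alone, had 57.5 FPKM in library 3 and 40.5 FPKM in library 5 and was listed at 0 elsewhere. Both regulatory genes had gaps in their transcript numbers and IDH3A had none. FH, the fumarase, completed the abundant genes of the cycle at 70.4 ± 10.04 FPKM (SD, n = 5), with 56.8 FPKM in library 1 and 82.0 in library 4.

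**Figure D1:**
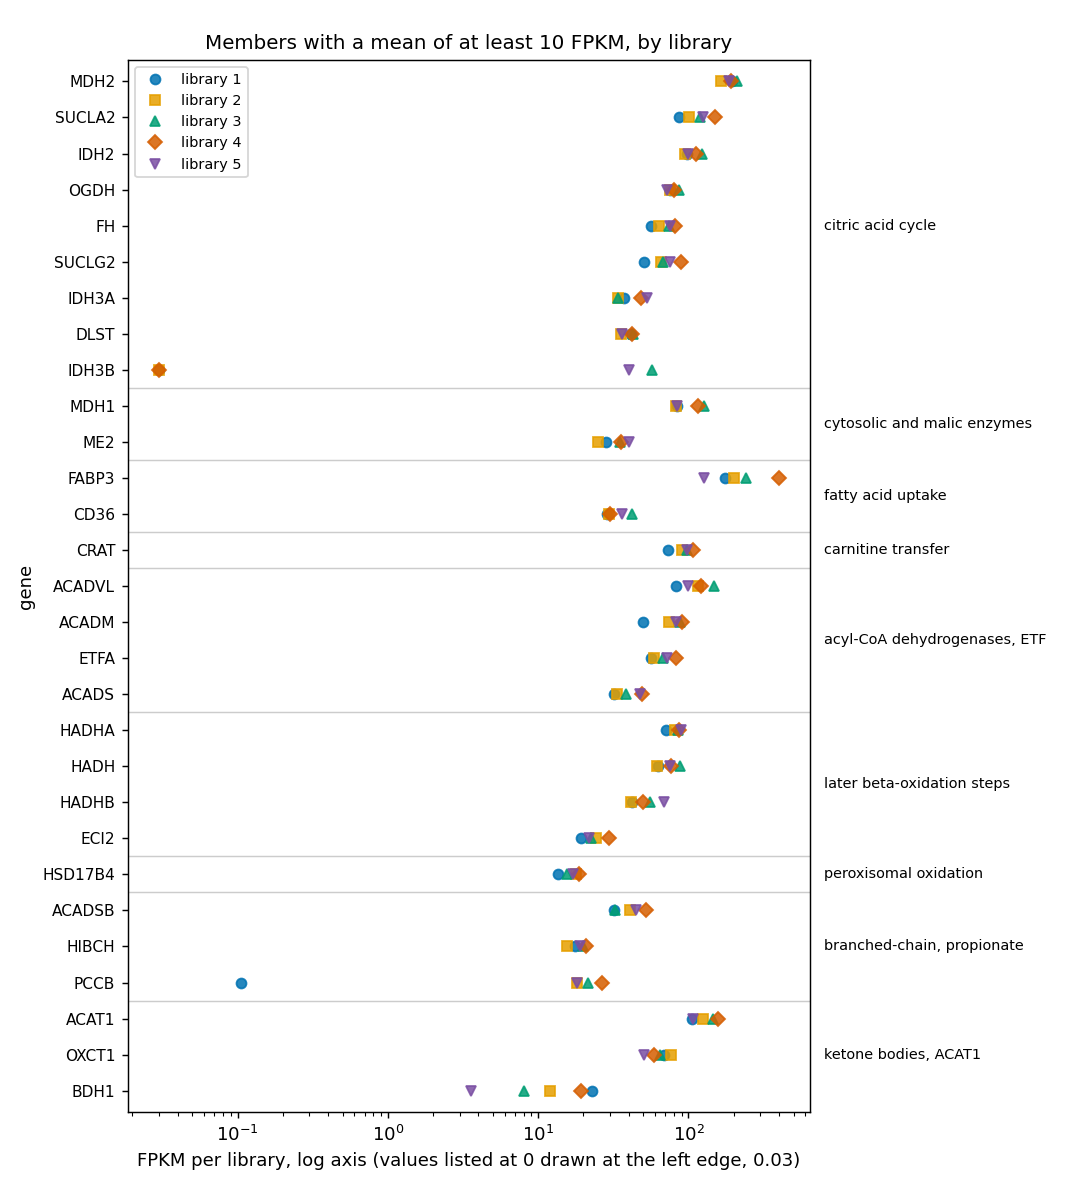
FPKM of 29 of the 31 genes with a mean of at least 10 FPKM, 1 point per library on a log axis, grouped by role. Most genes span less than 2-fold between animals. IDH3B at 0 in 3 libraries, PCCB at 0.106 FPKM in library 1 and BDH1 at 3.56 FPKM in library 5 fall away from the rest.

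Outside the mitochondrial cycle, the cytosolic malate dehydrogenase MDH1, which works with MDH2 to carry reducing equivalents between compartments, averaged 98.97 FPKM, above 8 of the 12 listed cycle genes. MDH1 had 84.3, 82.8, 128, 117 and 83.5 FPKM in libraries 1 to 5. Its values fell into a higher pair, libraries 3 and 4, and 3 libraries between 82.8 and 84.3 FPKM. MDH2 exceeded MDH1 in 5 of 5 libraries, by 1.93-fold (log2 ratio 0.95 ± 0.23, SD, n = 5). The NADP enzyme showed a wider gap, with the cytosolic IDH1 at 9.34 ± 2.22 FPKM (SD, n = 5) and a log2 ratio of 3.38 ± 0.32 for IDH2 over IDH1. ME2, a mitochondrial malic enzyme that turns malate into pyruvate, had 28.5, 25.02, 34.8, 35.7 and 40.5 FPKM. Pyruvate carboxylase, PC, which refills oxaloacetate, was low at 1.78 ± 0.843 FPKM (SD, n = 5), with 0.341 FPKM in library 2 and 1.84 to 2.41 FPKM in the other libraries. ACO1, the cytosolic aconitase, and ME3, a mitochondrial malic enzyme, stayed below detection. PC, ACO1 and ME3 had gaps in their transcript numbers.

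Uptake of fatty acids was represented by 1 very abundant gene. FABP3, which carries fatty acids through the cytosol of heart and oxidative muscle, had the highest mean of all 60 genes at 229 ± 105 FPKM (SD, n = 5). It had 175, 201, 242, 401 and 126 FPKM in libraries 1 to 5. It spanned 3.18-fold, with library 4 well above the rest, and 89.3% of detected genes had a smaller SD. CD36, the fatty acid translocase of the cell surface, had 28.9, 29.5, 42.0, 29.9 and 36.0 FPKM and did not follow FABP3, being highest in library 3 and near its lowest in library 4. Among the transport proteins, which also activate fatty acids, SLC27A1 was at 2.05 ± 0.316 FPKM (SD, n = 5) and SLC27A6 at 0.363 to 3.87 FPKM. SLC27A4 and SLC27A3 averaged under 1 FPKM. CD36 exceeded SLC27A1 in 5 of 5 libraries, with a log2 ratio of 3.48 ± 0.33 (SD, n = 5), though both genes had gaps in their transcript numbers.

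Because CD36 and FABP3 can come from fat and vessel cells as well as fibres, markers of these cells were read beside them. Of 9 adipocyte markers 4 were listed, and their summed level was 56.8 FPKM in library 5 and 121 FPKM in library 4, the libraries where FABP3 was also lowest and highest. Most of the sum came from LPL and PLIN4, at 64.4 and 51.6 FPKM in library 4 and 32.9 and 21.7 FPKM in library 5. PLIN4 by itself was lowest in library 1, at 13.2 FPKM. Of these 4, at least LPL is expressed by muscle too, so the sum is not a measure of fat cells alone. CIDEC was listed at 0 in library 5 and LIPE was at 0.00212 FPKM in library 3. ADIPOQ, PLIN1, FABP4, LEP and CIDEA were not listed. All 7 endothelial markers were listed, and their sum ran from 103 to 117 FPKM. The part of either cell type in these levels was not tested.

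For carnitine transfer the listed gene was CRAT, which moves acetyl groups between carnitine and CoA. CRAT had 73.6, 90.2, 98.3, 107 and 97.3 FPKM in libraries 1 to 5, lowest in library 1. CPT1B, the muscle gene for carnitine palmitoyltransferase at the outer membrane, was at 36.2 ± 5.07 FPKM (SD, n = 5) and lowest in library 1 too.

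The first step of beta-oxidation is shared among acyl-CoA dehydrogenases by chain length, and their levels followed that order from long to short. ACADVL, for very long chains, had 82.0, 115, 149, 122 and 99.8 FPKM in libraries 1 to 5. ACADM, for medium chains, had 49.5, 73.8, 87.8, 90.2 and 83.0 FPKM. ACADS, for short chains, had 31.9, 33.5, 38.7, 49.1 and 47.5 FPKM. Within every library ACADVL exceeded ACADM and ACADM exceeded ACADS, and all 3 genes were lowest in library 1. The log2 ratios were 0.56 ± 0.21 for ACADVL over ACADM and 0.91 ± 0.23 for ACADM over ACADS (SD, n = 5). ETFA, the alpha subunit of the flavoprotein that takes electrons from all of these dehydrogenases, had 56.3, 59.0, 68.2, 82.8 and 72.1 FPKM. ETFDH, the enzyme that passes those electrons on to ubiquinone, averaged 40.0 ± 6.58 FPKM (SD, n = 5) and had its lowest value, 31.4 FPKM, in library 1. ACAD11 was steady at 5.82 ± 0.562 FPKM, ACAD9, an assembly factor of complex I as well as a dehydrogenase, was at 1.58 ± 0.481 FPKM (SD, n = 5), and ACAD10 did not exceed 0.0612 FPKM.

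The later steps for long chains are carried by the trifunctional protein, whose subunits are encoded by HADHA and HADHB. HADHA had 71.3, 81.7, 85.1, 86.3 and 88.9 FPKM in libraries 1 to 5. HADHB had 42.2, 41.4, 55.4, 50.01 and 68.3 FPKM. Both were highest in library 5, and HADHA exceeded HADHB in every library, with a log2 ratio of 0.69 ± 0.22 (SD, n = 5). The genes are neighbours on chromosome 11, HADHB from 73226234 to 73256305 and HADHA from 73256623 to 73298910 in the table's coordinates, which leaves 317 bases between them. HADHB was listed through HADHB-202 alone, so its sum may be partial. HADHA had no gap up to its highest listed number, so its excess over HADHB rests on unequal listings.

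HADH, the dehydrogenase for shorter hydroxyacyl chains, averaged 72.6 ± 10.8 FPKM (SD, n = 5), from 61.4 FPKM in library 2 to 87.5 in library 3. ECI2 and DECR1, which handle unsaturated chains, averaged 23.5 ± 3.87 and 9.43 ± 1.87 FPKM (SD, n = 5). DECR1 was lowest in library 4, where most of these genes were high. ACAA2, the mitochondrial thiolase that ends each round, ECHS1, the short-chain hydratase, and ECH1 each averaged between 1 and 2 FPKM. ACAA2 was listed only as ACAA2-203 and ECH1 only as ECH1-202 and ECH1-203, so neither sum need hold the main transcript. ECHS1 had no gap below its listed number, and was at 4.30 FPKM in library 3 and 0.960 FPKM or below in the others.

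In the middle steps, the peroxisomal gene was lower than its mitochondrial counterpart. HSD17B4, which joins its middle steps in 1 protein, had 13.6, 17.8, 15.5, 18.7 and 17.0 FPKM in libraries 1 to 5. HADHA exceeded HSD17B4 in 5 of 5 libraries, by 4.797-fold, with a log2 ratio of 2.26 ± 0.11 (SD, n = 5). ACAA1, the peroxisomal thiolase, averaged 8.52 ± 1.91 FPKM (SD, n = 5) and lay above the partial sum of ACAA2. DECR2, the peroxisomal dienoyl-CoA reductase, stayed at or below 0.761 FPKM.

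Thioesterases, which split acyl-CoA back to free acid and CoA, all averaged under 10 FPKM, and ACOT2, ACOT9 and ACOT11 differed widely between animals. By mean level ACOT2 lay above 63.7% of all detected genes and ACOT11 above 56.7%. ACOT2, the mitochondrial form, had 6.40, 10.1, 16.04, 10.5 and 5.62 FPKM in libraries 1 to 5. ACOT11 had 14.9, 4.18, 9.45, 7.22 and 3.41 FPKM, a 4.36-fold span with its highest value in library 1. Of all detected genes, 92.8% had a smaller SD than ACOT11 and 86.6% a smaller one than ACOT2. ACOT9 and ACOT8 averaged 1.32 ± 0.953 and 1.21 ± 0.419 FPKM (SD, n = 5), and ACOT7 averaged under 1 FPKM.

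OXCT1 and BDH1, enzymes of ketone body use, had their highest values in libraries 2 and 1. OXCT1, which activates acetoacetate in tissues that burn ketone bodies, had 68.6, 76.5, 64.3, 58.9 and 50.5 FPKM in libraries 1 to 5. BDH1, which interconverts hydroxybutyrate and acetoacetate, had 22.7, 12.1, 8.02, 19.3 and 3.56 FPKM. Library 4, where most of the 50 genes were above their own mean, gave BDH1 its next highest value. Both were lowest in library 5, and OXCT1 was above its own mean in libraries 1 and 2, where most of the 50 genes were below theirs. The 6.36-fold span of BDH1 gave it a greater SD than 95.9% of detected genes. OXCT1 exceeded BDH1 in every library, with a log2 ratio of 2.41 ± 0.84 (SD, n = 5). ACAT1, the mitochondrial acetoacetyl-CoA thiolase that serves ketone bodies and isoleucine breakdown, had 106, 124, 146, 157 and 107 FPKM.

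For branched-chain amino acids and propionate, 3 of 8 listed genes averaged at least 10 FPKM, namely ACADSB, HIBCH and PCCB. ACADSB, the dehydrogenase of the isoleucine pathway, had 31.9, 40.6, 32.5, 52.5 and 45.0 FPKM in libraries 1 to 5. HIBCH and HIBADH, successive enzymes of valine breakdown, averaged 18.5 ± 2.07 and 7.56 ± 1.95 FPKM (SD, n = 5). HIBCH was the steadier of these enzymes, with a 1.34-fold span, against 2.06-fold for HIBADH. BCAT2, the mitochondrial aminotransferase, was at most 2.76 FPKM and listed at 0 in library 5, from BCAT2-202 alone. BCKDHA, a subunit of the branched-chain dehydrogenase, was listed at 0 in 3 libraries and did not exceed 0.331 FPKM, while MMUT, the methylmalonyl-CoA mutase, averaged 0.821 FPKM.

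Propionyl-CoA carboxylase, an enzyme of importance in ruminants because rumen fermentation yields propionate, gave the only pair that changed direction between animals. PCCA, its alpha subunit, had 10.02, 8.29, 9.42, 6.62 and 7.52 FPKM in libraries 1 to 5. PCCB, its beta subunit, had 0.106 FPKM in library 1 and 18.2, 21.6, 26.5 and 18.1 FPKM in libraries 2 to 5. PCCB thus exceeded PCCA in 4 libraries and lay far below it in library 1. The log2 ratio of PCCA over PCCB was -0.37 ± 2.09 (SD, n = 5), -1.29 without library 1, and 0.013 over all 5 libraries with a pseudocount of 0.1 FPKM. PCCB had 1 listed transcript, PCCB-201, which has no gap below its number, though any numbered above it would not show. The transcripts of PCCA had gaps, so the PCCA sum may be partial.

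Of 26 pairs of genes chosen for comparison, 17 had both members listed and 14 both detected. In 13 of these 14 the direction was the same in 5 of 5 libraries, the exception being PCCA and PCCB. The pairs were chosen with earlier results of these data known. Constant direction was not counted over other pairs of detected genes, so whether 13 of 14 is unusual cannot be said. Each ratio was tested two-sided by an exact permutation of its signs, which with 5 libraries gives at best p = 0.0625, and 16 of the 17 pairs reached it (0.066 after Benjamini-Hochberg adjustment over 17 pairs), so no pair could pass 0.05. PCCA and PCCB gave an exact p of 0.75 (adjusted 0.75).

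**Figure D2:**
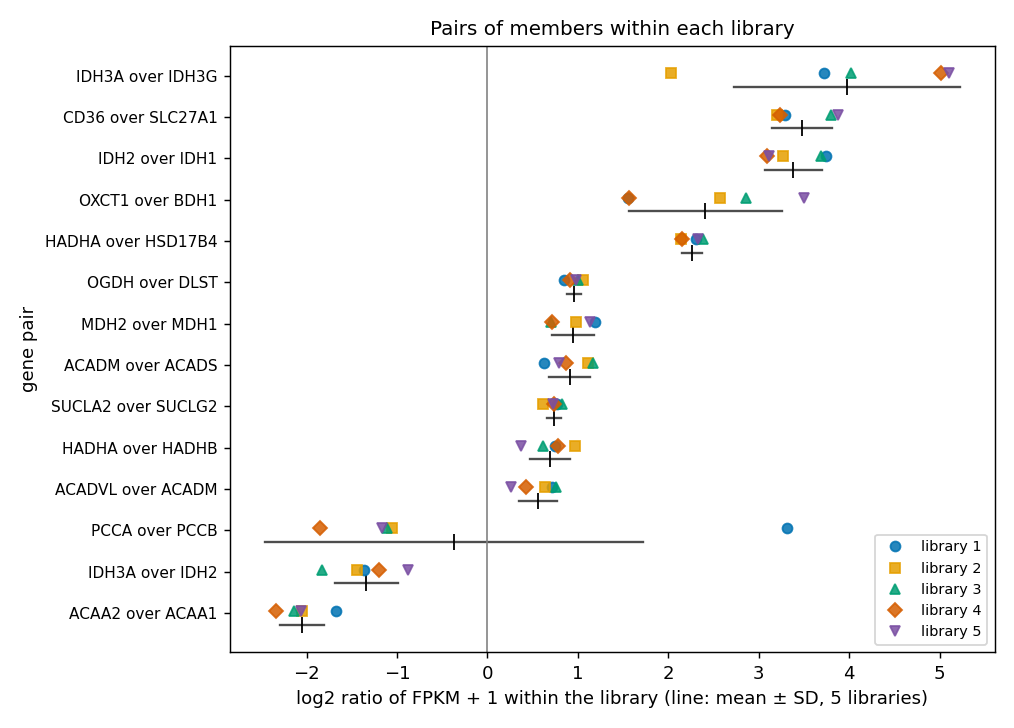
Log2 ratio of FPKM + 1 for 14 pairs with both genes detected, 1 point per library, with the mean ± SD of 5 libraries as a line. Ratios lie on 1 side of 0 for 13 pairs, tightest for SUCLA2 over SUCLG2 and OGDH over DLST (SD 0.08 each), and PCCA over PCCB crosses 0 through library 1.

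Across animals most of the 50 detected genes were low in library 1 and high in library 4. Deviations were taken from each gene's own mean over the 5 libraries on the log2(FPKM + 1) scale. In library 1, 37 of 50 genes lay below their own mean, where 49.7% of all detected genes did, and in library 2, 35 of 50, where 53.8% did. In library 3, 35 of 50 lay above their mean, where 57.0% of all detected genes did, in library 4, 40 of 50, where 52.3% did, and in library 5, 28 of 50, where 53.4% did. The share in library 5 was thus near that of all genes, and the shares in libraries 1, 2 and 4 were farthest from it.

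The median deviation of the 50 genes was -0.20, -0.08, 0.10, 0.15 and 0.05 in libraries 1 to 5, while that of all detected genes lay between -0.02 and 0.03. In TPM, with each library rescaled to a fixed total, the median of the 50 was -0.11 in library 1 and 0.058 in library 4, with 34 of 50 under their mean in library 1, against 38.7% of all detected genes, and 29 of 50 over it in library 4, against 39.99%. Abundant genes in general were low in library 1, so the 31 genes of at least 10 FPKM were also set beside all 2172 genes at that level. In library 1, 27 of these 31 genes were under their mean, against 64.0% of the abundant genes, with medians of -0.25 and -0.10. In library 4, 27 of 31 lay above it, against 57.3%, with medians of 0.18 and 0.05. In TPM these were 25 of 31 against 50.8% in library 1 and 20 of 31 against 42.9% in library 4. The 5 libraries are the only units of replication, genes of a pathway are not independent, and no test was made of these counts.

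Roles differed in where they were high. Under their mean in library 1 were 7 of the 8 genes of the later beta-oxidation steps and 5 of 6 acyl-CoA dehydrogenases with ETFA. So were 8 of 11 cycle genes. Of all detected genes 49.7% were under their mean there, and of those of at least 10 FPKM 64.0%. The cycle genes had a median deviation of -0.11 in library 1, near the -0.10 of all genes of at least 10 FPKM. In library 4 all 6 of that dehydrogenase group lay above their mean, with a median deviation of 0.25. So did 9 of 11 cycle genes, with a median of 0.08. Of all detected genes 52.3% were above their mean there. For genes of at least 10 FPKM it was 57.3%, with a median of 0.05. The later beta-oxidation steps divided evenly in library 4, with 4 above and 4 below. They were above their mean in 7 of 8 cases in library 5, whereas none of the 3 ketone body genes was above it there. In that library 53.4% of all detected genes were above their mean, and 60.2% of those of at least 10 FPKM.

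**Figure D3:**
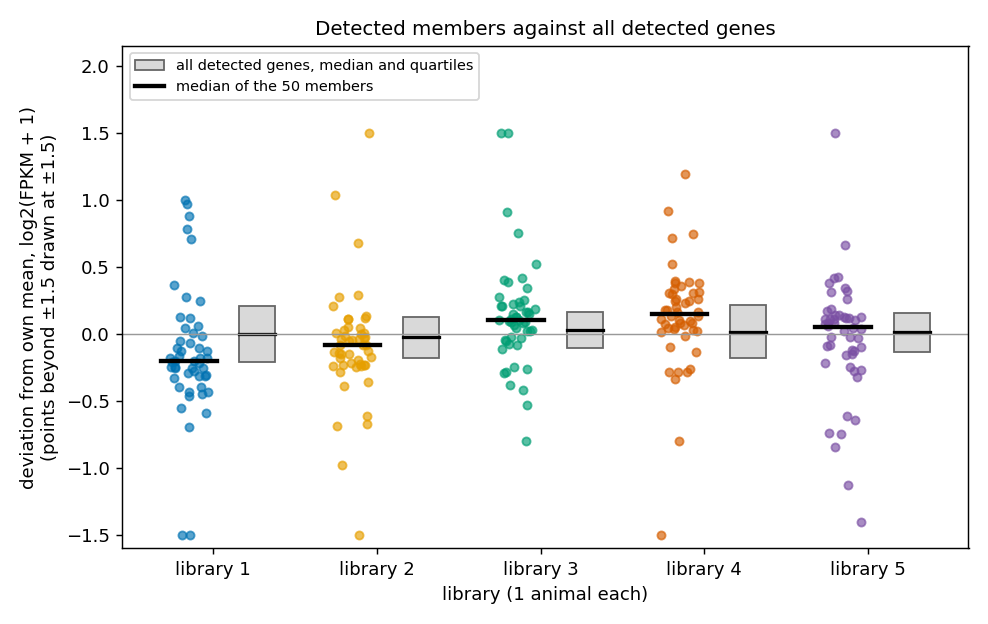
Deviation of each of the 50 detected genes from its own mean (points), beside the median and quartiles of all 6136 detected genes (grey boxes), for each library. The median of the 50 genes (black bar) is -0.20 in library 1 and 0.15 in library 4, while the medians of all genes lie near 0.

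A group of 5 genes, SUCLA2, SUCLG2, FH, ETFA and ACADS, ranked the animals identically, with library 4 highest and then 5, 3, 2 and 1. This order was noticed after the values had been seen. It was held by these 5 of the 50 (10%) and by 3.52% of all detected genes, against 3 of 50 and 2.05% of all detected genes in TPM. Of the 5 genes only SUCLA2 and FH kept the order in TPM, and CRAT gained it. The 5 genes belong to separate steps: succinyl-CoA to succinate, fumarate to malate, electron transfer from acyl-CoA, and the short-chain dehydrogenase. BDH1 and ACOT11 instead had their highest value in library 1, by log2 deviations of 0.97 and 1.003, and were lowest in library 5.

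**Figure D4:**
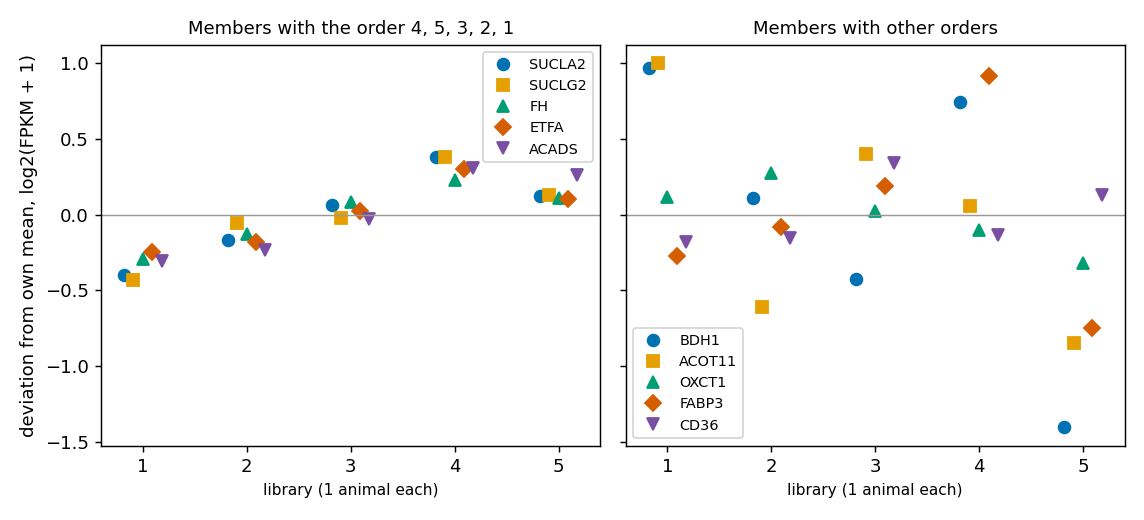
Deviation from the gene's own mean on the log2(FPKM + 1) scale, by library. The 5 genes on the left share the order 4, 5, 3, 2, 1, while on the right BDH1 and ACOT11 are high in library 1, FABP3 in library 4 and CD36 in library 3.

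Skeletal muscle markers were divided in direction. Of 10 markers 8 were listed, none at 0, with a summed level of 19849, 21150.3, 22259, 23765 and 21945 FPKM in libraries 1 to 5. In library 1, 4 of the 8 were under their mean and 4 over it, with a median deviation of -0.11, and in library 4, 5 were over it and 3 under, with a median of 0.08. Fibroblast markers, 3 of 6 listed, had a sum of 845, 394, 541, 769 and 460.5 FPKM in libraries 1 to 5, with 2 of 3 over their mean in library 1 and all 3 in library 4. The part of fibre or connective tissue content in the deviations was not tested.

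Other genes of these pathways, not among the 60, gave a mixed picture. Of 53 such genes 33 were listed and 28 detected; in library 1, 14 of the 28 were under their mean, where 49.7% of all detected genes were, and in library 4, 18 were over it, where 52.3% were. In library 2, 20 of the 28 were under their mean, beside 53.8% of all detected genes, and in library 3, 20 were over it, beside 57.0%. Succinate dehydrogenase links the cycle to the respiratory chain. SDHB had 128, 158, 197, 208 and 190 FPKM and SDHA 120, 121, 140, 153 and 146 FPKM in libraries 1 to 5. Both were lower in libraries 1 and 2 than in the others. SDHAF4 was listed at 0 in library 1 and was highest in library 4, at 7.95 FPKM. SDHC was at 0.122 FPKM or below in every library. In the pyruvate dehydrogenase group 5 of 7 detected genes were under their mean in library 1, and 6 of 7 over it in library 4. PDK4, the kinase that switches the pyruvate dehydrogenase complex off in fasting, led this group with 56.1, 138, 347, 79.0 and 231 FPKM, and was high in libraries 3 and 5.

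Of 6 detected genes of fatty acid activation and entry, 2 were under their mean in library 1, namely ACSL1 and CPT1B, the most abundant of the group. ACSL1, which activates long-chain fatty acids, had 24.6, 9.06, 40.03, 102 and 70.1 FPKM and was lowest in library 2. Among electron transfer genes and regulators, ETFDH and ESRRA, a nuclear receptor known to drive genes of oxidative metabolism, had the highest means. ESRRA had 18.9, 17.04, 25.04, 35.6 and 25.9 FPKM, highest in library 4 and low in libraries 1 and 2. For the remaining branched-chain genes, led by AUH at 15.4 ± 2.95 and DBT at 11.96 ± 2.46 FPKM (SD, n = 5), 2 of 6 were under their mean in library 1.

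The spread of these genes between animals was near that of other genes. The median SD of log2(FPKM + 1) was 0.28 for the 50 genes and 0.25 for all detected genes. Of the 50, 3 (6%) had an SD of at least 1, namely IDH3B, PCCB and IDH3G, and 3.63% of all detected genes did; the 3 became 9 with a pseudocount of 0.1 FPKM, 7 in TPM and 0 where 1 FPKM was required in every library. The 3 are subunits of multi-subunit mitochondrial enzymes, and IDH3B and IDH3G had gaps in their transcript numbers. BDH1 and ECHS1 followed closely, with SDs of 0.96 and 0.94. A library far from the other 4, by a Dixon gap ratio (the gap to the nearest library over the whole range) above 0.71, was found in 2 of the 50 genes (4%), PCCB and PC, and in 7.37% of all detected genes.

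Some genes with several listed transcripts drew nearly all of their signal from 1 of them, and others divided it. Among the 22 detected genes with more than 1 transcript, the leading transcript held at least 90% of the gene's FPKM on average in 12. In the other 10 it held less. The same shares over all genes of the series were not counted. OGDH was the most abundant gene that divided its signal, between OGDH-208 at 64.1% ± 4.25 and OGDH-210 at 35.8% ± 4.31 (SD, n = 5). OGDH-208 stayed within 46.6 to 52.5 FPKM, while OGDH-210 reached 33.8 FPKM in library 3 and 33.3 in library 4, beside 23.9 to 25.2 FPKM in the other libraries. The higher OGDH value of library 3 thus lay mostly in OGDH-210. OGDH had gaps in its transcript numbers, so these are shares among its listed transcripts only.

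CD36 divided between CD36-201, at 71.1% ± 3.53, and CD36-203, at 28.4% ± 3.42 (SD, n = 5). ACOT11-202 and ACOT11-201 shared ACOT11 nearly equally, at 52.7% ± 4.49 and 47.3% ± 4.49 (SD, n = 5), and both were highest in library 1. DLST-201 reached 7.73 FPKM in library 1 and no more than 1.41 FPKM elsewhere, while DLST-202 carried 33.0 to 42.5 FPKM in every library. Transcripts of a gene overlap, so the division between them is an estimate of the program that made the table.

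**Figure D5:**
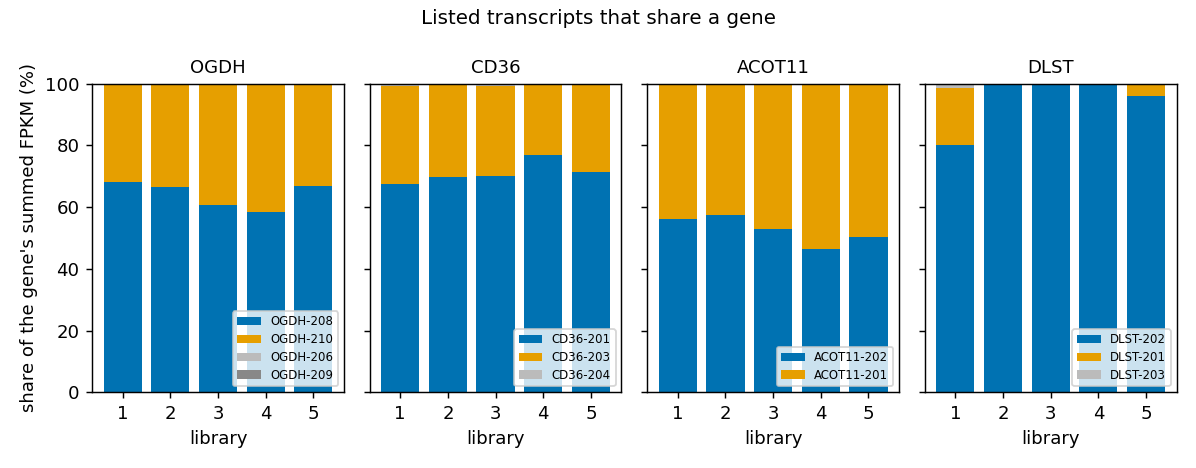
Share of a gene's summed FPKM in each listed transcript, as stacked bars from 0 to 100% for each library. OGDH-208 leads OGDH at 58.3% to 68.0%, and DLST-202 holds 80.002% of DLST in library 1 and 95.9% to 99.8% in the others.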

How the data were processed

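Total RNA of 5 longissimus dorsi samples was sequenced, with 1 library per animal. Per the file headers, the authors deposited FPKM by transcript, in 1 column per library. HTSeq 0.6.0, DESeq2 1.10.1 and the build UMD3.1 appear in the submitters' processing notes, with no role stated. Which aligner, annotation and FPKM program were used is not given in the sources used here. All 60 genes overlapped their position in a RefSeq table of ARS-UCD2.0, so the deposited coordinates are given without naming a build.

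Transcript FPKM were summed per gene identifier and analysed as log2(FPKM + 1) with Python 3.11.15, numpy 2.4.6, pandas 2.3.3 and matplotlib 3.10.9. A fold value is 2 raised to a mean log2 ratio of FPKM + 1, which understates differences of low genes, while a span is a plain ratio of FPKM. Genes listed at 0 in a library are counted at their listed values, but no mean is printed for them. A library was taken to stand apart where Dixon's gap ratio passed 0.71. Procedures were tested on simulated data. No 2 libraries held identical values. The labels do not say how animals were chosen. Each p-value asks only whether the mean log2 ratio in these libraries lay farther from 0 than under flipped signs.

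Genes described in full were, in each role, the 3 most abundant detected genes and the 2 with the largest SD, all detected genes of the pairs, genes with an SD of at least 1 and genes with a library standing apart; 2 of the 60 genes are counted in totals and medians but not reported singly or in pairs here. Genes, lists and pairs were chosen with earlier results of these data known.

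Alternatives were a pseudocount of 0.1 FPKM, detection limits of 5 FPKM, none, and 1 FPKM in every library, TPM, median-ratio size factors, the highest listed transcript only, and leaving out each library.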

Additional observations from a re-analysis of the deposited data

Results flagged for a closer look

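In single libraries 5 of the 60 genes stood apart from the other 4 libraries by Dixon's gap ratio on the log2(FPKM + 1) scale, a criterion that chance meets in about 1 of 20 groups; 2 of them were among the 50 detected genes (4%), where 7.37% of all detected genes met it. The detected genes were PCCB, at 0.106 FPKM in library 1, and PC, at 0.341 FPKM in library 2. The others were ACO1, at 1.03 FPKM in library 5, BCKDHA, at 0.331 FPKM in library 2, and ME3, at 0.125 FPKM in library 3, all with levels at or near 0 elsewhere. Following from PCCB, the log2 ratio of PCCA over PCCB stood apart in library 1 at 3.32. The summed share of OXCT1, BDH1 and ACAT1 stood apart in library 5, at 0.0780% of all FPKM, against 0.102% to 0.105% in the other 4 libraries.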

How the results depend on the processing

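Of 43 results, 12 alternatives gave 425 values, and 419 kept their call. Calls were the direction and test of a ratio, 1.5 times for a count, and the spread between libraries for a median deviation. The sign of a median deviation counted only from 0.1 upward. The test could not change the call of a ratio, since no pair could pass it with 5 libraries or fewer. The smallest exact permutation p was 0.0625. The 153 ratio values were thus judged by direction alone, and 152 kept it. Near 0, 3 median deviations changed sign in library 5: without library 1 that of the 50 genes was -0.018. The log2 ratio of PCCA over PCCB reversed with a pseudocount of 0.1 FPKM, to 0.013; leaving out single libraries moved it between -1.29 and -0.0024. The other 16 pairs kept their direction in every setting run, but in 6 of them 12 values moved by more than 1 SD. OGDH over DLST was 0.40 with the highest listed transcript only, and with a pseudocount of 0.1 FPKM SUCLG1 over SUCLA2 was -9.55 and DECR1 over DECR2 5.32, against -6.77 and 3.105 with 1 FPKM. Genes with an SD of at least 1 numbered 3 of 50, but 9 with a pseudocount of 0.1 FPKM, 7 in TPM, where the added unit is smaller relative to the values, and 0 where 1 FPKM was required in every library. The order of libraries 4, 5, 3, 2, 1, examined after seeing the data, was held in TPM by 3 genes, 2 of them among the 5, and 2.05% of all genes. The total FPKM that TPM divides by differed from its mean over libraries by 0.11 log2 units in library 4 and -0.10 in library 1; the median of the 50 genes minus that of all detected genes stayed between -0.23 and -0.17 in library 1 and between 0.10 and 0.16 in library 4. No paired analysis was possible because all libraries belong to 1 group. Without counts, the depth behind low values is unknown.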
